A study of Mus musculus with 6 samples.

Results

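The regions described here were the chromosome 1 probes of a mouse array-CGH series. Members were chosen by their position, as all non-control probes that the array design places on chromosome 1 of mm8, and numbered 2756 of 42404 probes. Within them a stretch was set apart because earlier measured values of the same arrays had shown it changed in both tissues. It held 48 probes, from 66711129 to 71594117, and the other 2708 probes made up the rest of the chromosome. Levels of the stretch and of the rest are therefore given as a description, without a test.

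In array-CGH, test and reference DNA are labeled with different dyes and hybridized to the same probes. The ratio of the dyes at a probe follows the ratio of DNA copies at its position. A gain or loss acquired by a tumor clone is seen in the tumor compartment, whereas a copy number difference present in the germline is carried by every tissue of an animal. Squamous cell carcinoma (SCC) often carries gains and losses of chromosome arms, and tissue that mixes normal with changed cells gives ratios closer to those of normal DNA. On the log2 scale a ratio of 1 copy to 2 is -1.

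Test DNA was taken from 3 Tgfbr2 fspKO mice of strain C57Bl/6 with SCC of the forestomach, from the epithelia and the stroma of each. The mice were 5 weeks old. In these mice Cre driven by the FSP1 promoter deletes the floxed type II TGF-β receptor gene in a subset of stromal fibroblasts, so captured stroma also holds cells without the deletion. Reference DNA came from epithelia of normal forestomach of Tgfbr2 flox/flox mice, which carry the floxed alleles. Forestomach tissue was collected from 3 such control mice, while their strain and which of them gave the reference DNA of each array are not given in the sources used here. For its staining of leukocytes the study names Tgfbr2 flox/flox littermates as the controls. Both tissues of a mouse were captured by laser, by morphology, and each was hybridized on an array of its own, which gave 3 epithelial and 3 stromal arrays. Test DNA carried Cy3 and reference DNA Cy5 on all 6 arrays, so that dye and sample cannot be told apart. No Tgfbr2 flox/flox sample served as test DNA, and the spread among control mice was therefore not measured. Genomic DNA holds no cell type markers by which the captured tissue could be checked.

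Values are log2 ratios of test over reference, centered on the median of all probes of an array. Where 3 values follow each other they belong to mice 1, 2 and 3, in that order. Epithelia and stroma were measured against the same kind of reference. Whether all arrays shared the same reference DNA is not given in the sources used here, so a departure of the reference could appear in both tissues or on single arrays. Where both tissues are changed, such a departure and a difference carried by both tissues of the mice cannot be told apart. Mice 1 and 2 were on 1 slide and mouse 3 on the other.

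The epithelial arrays were less alike than the stromal arrays. Over all probes, which are not independent replicates, Pearson's r was -0.095 between the epithelia of mice 1 and 2, 0.045 between those of mice 1 and 3 and 0.20 between those of mice 2 and 3. Among stromal arrays it lay between 0.36 and 0.44. The epithelia of mouse 1 reached at most 0.065 with any other array, and those of mouse 3 were most like the stroma of the same mouse, at 0.59. Both arrays of mouse 3 were alone on their slide, so mouse and slide cannot be told apart there. With the stroma of mice 1 and 2 the epithelia of mouse 3 reached 0.29 and 0.24. The spread between neighboring probes was 0.84 on the epithelial array of mouse 2, compared with 0.47 and 0.40 on those of mice 1 and 3. In the stroma it was 0.49, 0.40 and 0.42. Single values of the epithelia of mouse 2 were thus the least precise, and where leaving out that mouse moved a level of the stretch or its parts by over 1.5 times or turned its sign, the value without it is given. Of the 2756 chromosome 1 probes, 2090 stood well above background in both channels of every array. A value was lacking for 8 probes in the stroma of mouse 1 and for 6 in the stroma of mouse 3, and none was saturated.

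The stretch was not uniform. Over its 48 probes the epithelial arrays gave -0.22, -0.77 and -0.34, and the stromal arrays 0.014, 0.00090 and -0.25. The epithelia were thus low in every mouse, while the stroma of mice 1 and 2 lay close to 0. The mean was -0.44 ± 0.29 (SD, n = 3) in the epithelia, or -0.28 without mouse 2, and -0.079 ± 0.15 in the stroma. Within a mouse the epithelia were lower than the stroma by a mean of -0.36 ± 0.36 (SD, n = 3 mice), and by -0.16 without mouse 2. The stromal mean was smaller than the spread between mice and depended on how the stretch was summarized. It was -0.13, -0.12 and 0.0075 without mouse 1, 2 and 3. It was -0.16 ± 0.15 without the highest probe, -0.14 ± 0.096 with dim probes left out and -0.21 ± 0.079 as a median over probes, and each of these 3 was larger than its spread. A level of the whole stretch averages over parts of opposite sign, so the parts are described one by one.

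Segmentation, which places changes of level along the chromosome where they reduce the squared error by more than a penalty, divided the stretch. In the mean of all 6 arrays 4 pieces touched it. Of these, 1 piece was low, with 19 probes from 69561599 to 71405535 and a mean level of -0.88. It covered 1844 kb, and the nearest probes outside it allow a length of up to 2069 kb. Probes of the low piece were spaced by a median of 69.7 kb, compared with 25.5 kb over the chromosome.

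The low piece was low in both tissues of every mouse. The epithelial arrays gave -0.76, -1.19 and -0.79, and the stromal arrays -0.77, -0.75 and -1.03. The tissues overlapped, and every array was far below 0. The mean was -0.91 ± 0.24 (SD, n = 3) in the epithelia and -0.85 ± 0.16 in the stroma, and without mouse 2 the epithelial mean was -0.77. The difference between the tissues of a mouse was 0.0030, -0.44 and 0.24, with a mean of -0.065 ± 0.34, so it had no common direction and was smaller than its spread. The mean difference was -0.099, 0.12 and -0.22 without mouse 1, 2 and 3, and -0.17 as a median over probes. It also had the other sign with dim probes left out, at 0.060, and with normexp, at 0.0097. Normexp is another background correction, run here on signals without dye normalization and with an offset added to both channels.

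Single arrays placed the piece at nearly the same bounds. It began at 69561599 in the epithelia of mice 1 and 3 and in the stroma of all 3 mice. It ended at 71405535 in the stroma of mice 1 and 3, at 71334952 in the stroma of mouse 2, at 71263571 in the epithelia of mouse 3 and at 71594117 in the epithelia of mouse 1. In the epithelia of mouse 2 a longer piece of 40 probes, from 66764322 to 71405535, had a level of -0.99. That array had the widest spread between neighboring probes, at 0.84. The upstream bound thus lay between the same neighboring probes on 5 of 6 arrays, and the downstream bound varied.

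Most single probes of the low piece shared its direction. The piece was placed by these same values because its level was low, so the following counts are a description and nothing is read from the shares of all probes beside them. Below 0 on all 3 epithelial arrays were 17 of 19 probes, a state held by 12.5% of all probes with a value on every array. On all 3 stromal arrays the count was again 17, beside 24.6% of all probes, and 16 probes were below 0 on all 6 arrays, beside 4.64% of all probes. Probe means ran from -1.51 to -0.095 in the epithelia and from -2.43 to 0.38 in the stroma. The lowest epithelial mean belonged to A_53_P176138, whose test signal was well above background on 2 and whose reference signal on 1 of 3 epithelial arrays. The highest mean in both tissues belonged to A_53_P154380, whose test signal was well above background on 1 of 3 arrays of either tissue.

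The 3 lowest probes of the stretch by the mean over all 6 arrays, which is not their order within a tissue, included the first of the low piece, A_53_P149347 (69561599 to 69561658). It read -0.99, -1.49 and -1.53 in the epithelia and -0.88, -0.73 and -1.60 in the stroma. A_53_P168847 (70710848 to 70710907) read -0.59, -1.58 and -1.17 in the epithelia and -1.44, -0.96 and -1.21 in the stroma. Both were low on every array, and the tissues overlapped. A_53_P164074 (70962928 to 70962987) read 0.19, -1.39 and -1.55 in the epithelia and -2.67, -2.43 and -2.18 in the stroma. This probe was lower on every stromal than on any epithelial array, and the epithelia of mouse 1 lay above 0.

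Upstream of the low piece, 24 probes of the stretch from 66711129 to 69422755 behaved differently. The epithelial arrays gave 0.35, -0.65 and -0.0072, and the stromal arrays 0.66, 0.51 and 0.33. All 3 stromal arrays were above 0, and the epithelial arrays were spread on both sides of it. The mean was -0.10 ± 0.51 (SD, n = 3) in the epithelia and 0.50 ± 0.16 in the stroma. Leaving out mouse 1, 2 or 3 gave an epithelial mean of -0.33, 0.17 or -0.15. The stromal mean was above 0 under each alternative tried, but was 0.30 as a median over probes and 0.33 with dim probes left out. Epithelia were lower than stroma in each mouse, by -0.30, -1.16 and -0.34, with a mean of -0.60 ± 0.49. Without mouse 2 the mean difference was -0.32. Between mice the tissues overlapped, as the epithelia of mouse 1 lay just above the stroma of mouse 3. The stretch had been described as changed in both tissues. In these upstream probes the epithelia had no common direction, whereas the low piece was low in both tissues. That piece was placed by these same values, so its level is a description and no check.

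Of these 24 upstream probes, 9 had every epithelial array below every stromal array, which is 37.5%, beside 5.54% of all probes. None had every epithelial array above every stromal array, beside 7.73% of all probes. In the low piece the counts were 1 and 1 of 19. The tissues thus overlapped at most probes of either region. The bounds of both regions were set with these same values known, so nothing is read from the shares of all probes.

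The upstream probes also held the 3 highest means of the stretch over all 6 arrays. A_53_P157828 (66726250 to 66726309) read 2.33, 1.72 and 2.05 in the epithelia and 3.95, 3.42 and 3.19 in the stroma. With normexp its mean was 0.87 in place of 2.03 in the epithelia and 1.89 in place of 3.52 in the stroma. Its reference channel was not well above background on any array, and its test channel was so on 2 of 3 epithelial and 3 of 3 stromal arrays. In the mean of all 6 arrays it ended a piece of 3 probes, from 66646051 to 66726309, at a level of 1.12, and the mean of the stroma gave the same piece at 1.52. This piece began 1 probe outside the stretch, and its other stromal probe means were 0.24 and 0.81, compared with 3.52 for A_53_P157828. No single array was given this piece. The stroma of mouse 1 held a longer high piece of 29 probes, from 66619900 to 69422755, at a level of 0.64. That of mouse 2 held one of 24 probes, from 66711129 to 69422755, at 0.51. The stroma of mouse 3 and the epithelial arrays were given no high piece there. The number of pieces that touched the stretch was 3 in place of 4 with normexp, with dim probes left out, without mouse 1 and at the higher penalty, while the low piece was found each time. The test signal of A_53_P157828 was at least 1.32-fold the reference in the epithelia and at least 3.65-fold in the stroma. These bounds set the test signal against the higher of the dim signal itself and the lowest signal well above background, per channel after normalization, and are open to dye bias.

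A_53_P157410 (66934915 to 66934974) read 0.81, 0.13 and 0.30 in the epithelia and 1.89, 1.86 and 1.23 in the stroma. A_53_P151305 (68281780 to 68281839) read 0.29, 1.28 and 0.42 in the epithelia and 1.89, 1.04 and 0.80 in the stroma. Both were above 0 on every array, and neither channel was dim. The stroma was higher on every array for the former, while the tissues overlapped for the latter. Without A_53_P157828 the upstream level was -0.19 in the epithelia and 0.37 in the stroma, so the order of the tissue means did not rest on that probe. The epithelial value had the other sign without mouse 2, at 0.085.

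Downstream of the low piece lay 5 probes of the stretch, from 71491366 to 71594117. The epithelial arrays gave -0.87, 0.22 and -0.22, and the stromal arrays -0.10, 0.39 and -0.13. Neither tissue had a common direction, and the array of mouse 2 was the highest in each. The mean was -0.29 ± 0.55 (SD, n = 3) in the epithelia and 0.055 ± 0.29 in the stroma, and neither was larger than its spread. Leaving out each mouse in turn gave epithelial means of 0.0031, -0.54 and -0.32 and stromal means of 0.13, -0.11 and 0.15. The epithelial mean was -0.11 with normexp and also with dim probes left out, and the stromal mean 0.13 with dim probes left out and 0.14 as a median. Within each mouse the epithelia were lower than the stroma, by -0.77, -0.17 and -0.091. The mean difference, -0.34 ± 0.37, was smaller than its spread, and was -0.16 with normexp. It was larger than its spread without mouse 1, at -0.13 ± 0.053, and as a median over probes, at -0.50 ± 0.23.

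Values just inside and just outside the bounds of the stretch are given here once, as epithelial and then stromal mean. The first probe, A_53_P141027 (66711129 to 66711188), had 0.053 and 0.81, and the nearest probe outside, A_53_P140709, had 0.080 and 0.24. The last probe, A_53_P142157 (71594058 to 71594117), had -0.78 and -0.29, and the nearest probe outside, A_53_P105749, had -0.40 and 0.34. The bounds of the low piece fell inside the stretch. On its upstream side A_53_P142835 had -0.45 and 0.31, followed by A_53_P149347 with -1.34 and -1.07. On its downstream side A_53_P104381 had -1.29 and -0.56, followed by A_53_P130473 with -0.23 and -0.31. Both tissue means were lower inside than outside at either bound of the low piece. Single arrays carried much of several of these means. The epithelial mean of A_53_P104381, whose test signal was well above background on 2 of 3 epithelial arrays, was -0.70 without mouse 2 and also with normexp. Without mouse 2 the epithelial means of A_53_P142835 and A_53_P105749 were 0.35 and -0.092. Without mouse 1 those of A_53_P142157 and A_53_P130473 were -0.44 and -0.022, and the stromal mean of A_53_P105749 was 0.041. Each channel of A_53_P142157 was well above background on 2 of 3 epithelial arrays, and its epithelial mean was -0.36 with normexp. Its stromal mean was -0.49 without mouse 2 and -0.15 without mouse 3.

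Outside the stretch the question was whether the rest of chromosome 1 lay at the level of the genome. The epithelial arrays gave -0.10, -0.12 and -0.15, and the stromal arrays 0.074, 0.011 and -0.031. Every epithelial array was below every stromal array. The epithelial mean was -0.12 ± 0.024 (SD, n = 3) and the stromal mean 0.018 ± 0.053. The epithelial shift was larger than the spread between mice, the stromal level was not, and both were far smaller than that of the low piece.

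Within each mouse the epithelia were lower than the stroma, by -0.17, -0.13 and -0.12, with a mean of -0.14 ± 0.029 (SD, n = 3 mice). The value was -0.15 for the mice of the slide with 2 mice and -0.12 for the mouse of the other slide, and -0.15 without mouse 2. Both slides thus gave the same direction. Below 0 were 59.5%, 55.8% and 65.1% of the probes in the epithelia and 45.9%, 46.6% and 53.7% in the stroma. The shift was spread over many probes.

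Since each array is centered on its own median, a low chromosome is low only relative to the others. Among 20 chromosomes, counted from the lowest, the whole of chromosome 1 ranked 4, 3 and 2 on the epithelial arrays and 18, 17 and 3 on the stromal arrays. It was among the low chromosomes of every epithelial array, and its place in the stroma varied. By the mean of the difference between tissues, -0.15 ± 0.029, it was the lowest of 20, and it ranked 1, 2 and 2 in the single mice. It was not alone in this. Chromosome 18, at -0.12 ± 0.033, differed from it by less than the spread between mice and had nearly the same epithelial mean, -0.134 compared with -0.130. Every epithelial array was below every stromal array for chromosomes 1, 2, 13 and 18.

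The shift was seen along most of the chromosome. In 10 Mb windows outside the stretch, epithelia were lower than stroma in all 3 mice in 17 of 20 windows. The exceptions, 70 to 80, 90 to 100 and 180 to 190 Mb, were higher in mouse 2 alone. Of the windows, 17, 17 and 20 were below 0 on the epithelial arrays, compared with 5, 9 and 14 on the stromal arrays. In 6 of the 20 windows every epithelial array was below every stromal array. With 5 Mb windows, epithelia were lower in all 3 mice in 25 of 40. Windows of other chromosomes were not counted, so no share stands beside these counts.

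The lowest epithelial windows were 10 to 20 Mb, with -0.18 ± 0.15 (SD, n = 3), and 60 to 70 Mb, with -0.17 ± 0.18. The highest were 70 to 80 Mb, with -0.036 ± 0.18, and 140 to 150 Mb, with -0.072 ± 0.20. In each of these 4 windows the array of mouse 2 lay farthest from the others, and their order was within the spread between mice. The lowest stromal windows were 180 to 190 Mb, with -0.071 ± 0.0074, and 30 to 40 Mb, with -0.032 ± 0.056. The highest were 140 to 150 Mb, with 0.17 ± 0.13, and 100 to 110 Mb, with 0.15 ± 0.17. The stroma of mouse 1 carried much of both, at 0.33 and 0.34. Mice 2 and 3 gave 0.10 and 0.090 in the former and 0.11 and 0.0085 in the latter. The difference between tissues was lowest at 100 to 110 Mb, with -0.29 ± 0.22, and at 110 to 120 Mb, with -0.25 ± 0.093. The latter window held only 9 probes. At 100 to 110 Mb mouse 2 carried much of the difference, at -0.54, compared with -0.21 and -0.12 in mice 1 and 3. The difference was highest at 70 to 80 Mb, with -0.011 ± 0.21, and at 180 to 190 Mb, with -0.060 ± 0.099. Both rested on mouse 2, at 0.23 and 0.054. Mice 1 and 3 gave -0.11 and -0.15 in the former and -0.13 and -0.11 in the latter.

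The level of a window went with its number of probes on some arrays, in a direction that changed between them, and little in the stroma of mice 2 and 3. Spearman's rho between the level and the number of probes of 20 windows was -0.76, 0.56 and -0.42 on the epithelial arrays. On the stromal arrays it was -0.55, -0.19 and 0.076. Windows of an array share its DNA and hybridization, and these values are a description. The part of probe number in the window levels was not tested.

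Single probes were tested with limma, fitted on all 42404 probes with Benjamini-Hochberg adjustment. The tissue means were fitted together with a shared spread, and the mouse was not a block in that fit. In the epithelia 1 of 2756 chromosome 1 probes passed an adjusted p of 0.05, compared with 0.0236% of all probes. In the stroma 1 passed, compared with 0.00472% of all probes. Both were A_53_P157828, with limma's adjusted p = 0.020 in the epithelia and 0.00070 in the stroma, higher on 3 of 3 arrays each. The epithelial call was lost with normexp, with the slide as a block, in an ordinary test per probe and without mouse 1 or 3, and the stromal call in an ordinary test and without mouse 3. These contrasts had been used to set the stretch apart, and nothing is read from the counts. No probe of the low piece passed, where the lowest adjusted p by limma was 0.30 in the epithelia and 0.12 in the stroma. With normexp, with dim probes left out or without mouse 2, its probe A_53_P164074 did pass in the stroma.

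For epithelia minus stroma, fitted with the mouse as a block, 0 of 2756 probes passed in limma, compared with 0.0189% of all probes. At an unadjusted p of 0.05 there were 121 lower probes, which is 4.39%, and 69 higher probes, which is 2.50%. Over all probes 2.66% were lower and 4.64% higher. An ordinary test per probe also called 0. At the unadjusted level 83 of the 2756 probes were lower and 36 higher, beside 1.62% and 2.67% of all probes.

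Counts at the unadjusted level come from the same values as the levels and add no support to them. Outside the stretch, 8.71% of probes were lower in the epithelia at an unadjusted p of 0.05 and 2.92% were higher, beside 4.25% and 6.42% of all probes. In the stroma 5.43% were lower and 5.91% higher, beside 6.06% and 5.45% of all probes. Every epithelial array was below every stromal array at 301 of 2694 probes outside the stretch with a value on all arrays, which is 11.2%, beside 5.54% of all probes. Every epithelial array was above every stromal array at 135, which is 5.01%, beside 7.73% of all probes.

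Single probes outside the stretch also reached low or high values. Segmentation of the mean of all arrays placed no piece at them. It could not do so at a lone probe, since a piece needed at least 3 probes. Among single probes well above background everywhere, the lowest in the stroma were A_53_P153432 at 82191618 (-1.46 ± 0.22), A_53_P107035 at 123188566 (-1.42 ± 0.22) and A_53_P146690 at 160991217 (-1.38 ± 0.29). The highest were A_53_P105873 at 54358787 (1.19 ± 0.49), A_53_P142183 at 90100520 (1.09 ± 0.58) and A_53_P117063 at 107621603 (1.05 ± 0.51). None of these passed the test, and their stromal arrays did not cross 0.

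In the epithelia the lowest probes by the same rule were A_53_P156664 at 188346961 (-1.31 ± 1.48), A_53_P108912 at 167533612 (-1.16 ± 0.56) and A_53_P161864 at 170256763 (-1.15 ± 1.09). The highest were A_53_P156290 at 97069874 (1.20 ± 0.70), A_53_P139877 at 72215410 (1.03 ± 0.58) and A_53_P127252 at 28772833 (1.01 ± 1.09). None passed the test. The array of mouse 2 was the most extreme of the 3 at each of these 6 probes, so their rank leaned on the least precise array. Without mouse 2 the means of A_53_P156664, A_53_P161864 and A_53_P127252 were -0.46, -0.66 and 0.53.

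Away from the stretch, the mean of the stroma held a piece above its surroundings, 52 probes from 174819494 to 176743907. The stromal arrays gave 0.60, 0.14 and 0.25, and the epithelial arrays 0.16, -0.55 and -0.022. Stroma was above 0 in every mouse, while the epithelia of mouse 1 lay above the stroma of mouse 2. Within each mouse the epithelia were lower than the stroma, with a mean difference of -0.47 ± 0.21. In the stroma of mouse 1, 6 probes from 174962839 to 175062052 had a level of 1.48, compared with 0.43 and 0.59 in mice 2 and 3. The epithelia had -0.012, -0.38 and 0.56 over the same probes. Further pieces of the stroma of mouse 1 ran from 175107725 to 180112773 and from 194861914 to 196871918. Stromal arrays gave 0.35, 0.079 and 0.052 in the former and 0.36, 0.17 and 0.11 in the latter. Epithelial arrays gave 0.013, -0.37 and -0.16, and 0.0073, -0.18 and -0.029, so every epithelial array was below every stromal array. In the piece between them, from 180115503 to 194855564, the tissues overlapped. These pieces were placed by the same values and were not tested.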

How the data were processed

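Arrays of epithelia and stroma, captured by laser from 3 mice, were read from 6 Feature Extraction 10.7.1.1 files. The intensity values used for the main ratios were processed signals, which the authors' software had background-subtracted and dye-normalized. The authors' deposited log10 ratios came from that software, were identical in the series table (largest difference 0) and served as an alternative. From the signals, log2 of test over reference was computed per spot, without outlier spots, averaged per probe and centered on the array median.

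Levels are means over probes per array, then mean and SD over mice. Tests used limma 3.58.1 (R 4.3.3). Segmentation was least squares with a penalty multiple of 3 and at least 3 probes a piece, in Python 3.11.15, numpy 2.4.6, pandas 2.3.3, numba 0.67.0 and scipy 1.17.1, and was tested on simulated data. There it did not recover pieces like the low piece at the noise of the epithelia of mouse 2. Labels give both tissues of a number to the same animal, so the mouse was the block for epithelia minus stroma. The 2 tissue means were fitted together on all 6 arrays, with a shared spread and no block for the mouse. Correlations of deviations within a mouse were 0.078, -0.023 and 0.10 across probes. Named probes were the ends of the stretch with their outside neighbors, its 3 highest and 3 lowest by the mean over 6 arrays, and, elsewhere, up to 5 called and the 3 highest and 3 lowest of each tissue. Probes bounding the low piece were added after values were seen. Members and lists were chosen with earlier results of these data known. Alternatives were normexp, the series table, loess, dim probes left out, other centering, left-out mice, slide or no block, an ordinary test, medians, and other bounds, windows and penalties. The number of arrays limits the precision. Probe genes and sequences were not used here.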

Additional observations from a re-analysis of the deposited data

Results flagged for a closer look

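In the window of 160 to 170 Mb every epithelial array was below 0 and every stromal array above it. Its 208 probes gave -0.15, -0.21 and -0.12 on the epithelial arrays and 0.10, 0.032 and 0.016 on the stromal arrays, a mean difference of -0.21. The pattern held at 165 to 170 Mb and not at 160 to 165 Mb, where the stroma of mice 2 and 3 gave -0.035 and -0.062. The difference between the tissues was not tested, and 3 mice limit it.

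A_53_P139877 (72215410 to 72215469) had every epithelial array above 0 and every stromal array below it. It read 1.33, 1.40 and 0.37 in the epithelia and -0.74, -0.11 and -0.013 in the stroma, a mean difference of 1.32. In limma with the mouse as a block the difference had an adjusted p of 0.68, so it did not pass. The stromal mean was -0.29, and -0.061 without mouse 1.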

How the results depend on the processing

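Of 193 comparisons of the main levels and counts with an alternative, 177 moved by less than the spread between mice or, for counts, by less than 1.5 times. The low piece kept its 19 probes under every alternative except that with dim probes left out, which kept 14. With normexp the low piece was nearer 0, at -0.64 in the epithelia and -0.65 in the stroma, and the tissue difference outside the stretch was -0.11. The stromal level upstream of the low piece was 0.33 with dim probes left out and 0.30 as a median. These levels kept their direction, while the difference of the low piece was 0.0097 with normexp. The pieces that touched the stretch numbered 3 or 4. The stromal level outside the stretch was near 0, and was -0.00094 with normexp and -0.0098 without mouse 1. That of the whole stretch, -0.079, ran from -0.13 to 0.0075 when each mouse was left out. It was -0.21 as a median, -0.21 over the pieces inside the stretch, -0.14 with dim probes left out and -0.16 without the highest probe, the last chosen after seeing the data. Windows with epithelia below stroma in all mice made up 85% of the 10 Mb and 62.5% of the 5 Mb windows, and 65% with dim probes left out. The cause was not tested.

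Called chromosome 1 probes in the epithelia numbered 0 with normexp, with dim probes left out, with the slide as a block and in an ordinary test. In the stroma 3 were called with normexp, beside 0.0189% of all probes, and 0 in an ordinary test. A_53_P164074 of the low piece passed in the stroma with normexp, with dim probes left out and without mouse 2. The upstream probe A_53_P157410 also passed in the stroma with normexp, and A_53_P103858, outside the stretch, without mouse 2. When each mouse was left out in turn, the counts ran from 0 to 1 in the epithelia, from 0 to 3 in the stroma and from 0 to 3 for the difference. Over all probes 0.0283% were called in the stroma without mouse 2 and 0.156% for the difference without mouse 1, beside 0.109% of the chromosome 1 probes in each. Fewer arrays entered those fits. The difference calls without mouse 1 were A_53_P176012, A_53_P153197 and A_53_P103858, named after their values were seen. With no replicate block the difference count was 0, as with it, so the pairing changed no call on chromosome 1.

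Among named probes, 15 values that had not passed the test changed sign, in 21 comparisons. A_53_P127252 in the stroma was -0.11 with the slide as a block, and A_53_P140709 in the epithelia was -0.055 with the slide as a block and -0.037 with normexp. Leaving out each mouse in turn gave these ranges. In the stroma A_53_P127252 ran from -0.022 to 0.13 and A_53_P140709 from -0.048 to 0.47. In the epithelia A_53_P140709 ran from -0.15 to 0.39, A_53_P141027 from -0.055 to 0.22, A_53_P142835 from -1.09 to 0.35, A_53_P153432 from -0.40 to 0.41 and A_53_P142183 from -0.26 to 0.48. For epithelia minus stroma A_53_P140709 ran from -0.44 to 0.044, A_53_P142835 from -1.33 to 0.082, A_53_P168847 from -0.29 to 0.45 and A_53_P130473 from -0.022 to 0.28. For the same difference A_53_P156290 ran from -0.067 to 0.28, A_53_P117063 from -0.72 to 0.10, A_53_P146690 from -0.22 to 0.96 and A_53_P161864 from -1.15 to 0.27. Dim signals limit single probes, and the epithelia of mouse 2 had the widest spread.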
